A study of Mus musculus with 9 samples.

Results

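Lcn2, Apod and Ptgds encode secreted lipocalins and Slpi encodes a secreted protease inhibitor, and their transcripts were followed through the cells of 9 primary mouse mammary tumours. They are 4 of the 32286 features of the deposited gene table and were read by symbol. The members were chosen by results of these same tumour cells: Lcn2 had been among the largest rises in Kmt2c KO against WT cells, Apod among those in Kmt2d KO against WT cells, and Ptgds had led a cluster of reporter-positive cells. Which values chose Slpi is not known. Their levels by genotype in tumour cells are therefore given as a description, without a test.

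The tumours were grown from 168FARN, a mouse mammary tumour cell line, injected into the mammary fat pads of female BALB/c mice, which have an intact immune system and the same genetic background as the line. The WT group (n = 3 tumours) carried unedited cells. The Kmt2c KO (n = 3) and Kmt2d KO (n = 3) groups carried cells edited with Cas9 and a pool of guides against exon 1 of the histone methyltransferase gene Kmt2c or its paralogue Kmt2d. All 3 lines expressed the H2B–mCherry reporter H2BMc. Each knockout is 1 sorted pool of edited cells and not a clone, so the 3 tumours of a group replicate the mouse and not the knockout. The labels give no age for the mice. Whole tumours were dissociated and profiled by 5′ single-cell RNA sequencing, and the numbers 1 to 3 only name libraries within a group.

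Lipocalins fold into a barrel with a cup that holds a small greasy ligand. The protein of Lcn2 binds bacterial siderophores and so keeps iron from bacteria, and its gene is a classic target of inflammatory signals in epithelium and neutrophils. The protein of Apod carries lipids such as arachidonic acid and progesterone and is abundant in breast cyst fluid, whereas that of Ptgds is both a lipid carrier and the enzyme that makes prostaglandin D2. The protein of Slpi has WAP domains, inhibits neutrophil elastase and cathepsin G, and protects mucosal and glandular surfaces.

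Ptgds (ENSMUSG00000015090), Lcn2 (ENSMUSG00000026822) and Slpi (ENSMUSG00000017002) all lie on chromosome 2, at chr2:25466709-25470110, chr2:32384637-32387739 and chr2:164354070-164356507 of GRCm38.p6 (mm10). Apod (ENSMUSG00000022548) lies at chr16:31296192-31314808. All 4 genes are read from the minus strand. The 250 bases before the start of Lcn2 (chr2:32387740-32387989) and Slpi (chr2:164356508-164356757) are shown 5′ to 3′ on the minus strand from RefSeq, because Lcn2 was found in the same cells as Slpi more than as any other member. Capitals mark letters that match a searched motif on either strand.
Lcn2: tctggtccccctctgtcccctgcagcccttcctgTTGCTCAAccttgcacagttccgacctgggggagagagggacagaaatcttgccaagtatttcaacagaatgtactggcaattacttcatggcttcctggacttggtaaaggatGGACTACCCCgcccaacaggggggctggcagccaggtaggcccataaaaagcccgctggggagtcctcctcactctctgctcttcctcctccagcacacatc
Slpi: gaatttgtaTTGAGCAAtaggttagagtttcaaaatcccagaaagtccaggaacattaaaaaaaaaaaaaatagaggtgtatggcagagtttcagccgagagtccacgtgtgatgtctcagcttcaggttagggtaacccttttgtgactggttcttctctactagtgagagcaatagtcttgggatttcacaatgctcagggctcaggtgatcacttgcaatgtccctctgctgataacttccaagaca
The capitals TTGCTCAA in Lcn2, 216 bases before the start, and TTGAGCAA in Slpi, 241 bases before it, match the C/EBP letters TTGCNNAA, which 9.56% of 32851 mouse promoter windows of this length hold. Lcn2 also holds the NF-kB letters GGGNNNNNCC on the other strand, 102 bases before the start, as does Apod, and Ptgds holds them on its own strand, whereas Slpi does not. Of all windows, 45.8% hold them. The Ptgds window (chr2:25469750-25469999) is counted from the start in RefSeq's promoter table and lies inside the gene span given above. The AP-1 letters TGANTCA were found in Ptgds alone among the 4 windows (6.75% of all windows). The letters TTCNNNGAA (GAS, 7.02% of windows), GAAANNGAAA (ISRE, 2.98%) and TATAAA (12.4%) were in none of the 4. These matches are a description and were not tied to any binding measurement.

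The matrix held 89147 barcodes and 585680611 UMIs, or unique transcript tags, with 21529691 to 125617312 UMIs per library. Of 58645 cells that passed the study's limits, 16707 held at least 1 H2BMc UMI and are called reporter-positive or tumour cells here. They numbered 448, 925 and 361 in WT libraries 1 to 3, 3434, 2599 and 2244 in Kmt2c KO and 1851, 2028 and 2817 in Kmt2d KO. Their median depth was 13729 to 24081 UMIs in WT and 8661 to 14789 in the knockouts, so shares of positive cells are given after each cell was thinned to 2000 UMIs, which left out 492 shallower cells. In all, 4365 barcode sequences occurred in more than 1 library, 184 of them among reporter-positive cells. Krt8, the epithelial keratin that the study used beside H2BMc to mark tumour cells and that was not required here, was read at 550 to 569 CPM (UMIs of a gene per 1000000 UMIs summed over the cells of a library) in WT, 235 to 339 in Kmt2c KO tumours and 304 to 466 in Kmt2d KO. Transcripts of the targeted genes were not lost, so their levels do not check the labels. Kmt2c was at 42.0 to 57.6 CPM in Kmt2c KO and 48.1 to 49.1 in WT. Kmt2d was at 24.3 to 31.9 CPM in Kmt2d KO and 14.9 to 21.4 in WT. In Kmt2c KO, where it was not targeted, Kmt2d was also above WT, at 26.3, 21.8 and 31.1 CPM. The cause was not tested. H2BMc itself was read at 72.7 to 113 CPM in WT, 142 to 153 in Kmt2c KO and 90.6 to 117 in Kmt2d KO. How many tumour cells of each genotype held no H2BMc UMI, and so were missed, was not tested. The 10 fibroblast markers were detected in 0.144% (Col14a1) to 94.1% (Gsn) of reporter-positive cells.

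Lcn2, Apod and Slpi were higher, and Ptgds lower, in the tumour cells of every Kmt2c KO library than in every WT library. In Kmt2d KO, Apod and Slpi were above WT in all 3 libraries, Lcn2 was above it in 2 of 3, and Ptgds lay in the WT range in part. Beside these counts, 20.8% of the 14089 genes tested did not overlap in the direction higher in Kmt2c KO than in WT and 21.3% in the direction lower. For Kmt2d KO against WT the shares were 13.3% higher and 10.2% lower, and nothing is read from the members' counts, since the members were chosen with results of these tumour cells known.

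Lcn2, the siderophore-binding lipocalin, was barely detected in WT tumour cells. It was read at 0.30, 2.15 and 0.20 CPM in WT (3, 31 and 2 UMIs), at 17.6, 34.1 and 41.5 CPM in Kmt2c KO, and at 29.6, 23.5 and 1.90 CPM in Kmt2d KO libraries 1 to 3. All Kmt2c KO libraries stood above all WT libraries, whereas Kmt2d KO 3 lay below WT 2. Group means were 0.885 ± 1.10 CPM (SD, n = 3) in WT, 31.1 ± 12.2 in Kmt2c KO tumours and 18.3 ± 14.6 in Kmt2d KO. The log2 fold change was 4.91 ± 1.05 (SE) for Kmt2c KO and 4.11 ± 1.07 for Kmt2d KO against WT, and without WT 2, which held most of the WT UMIs, these were 6.92 and 6.12. The level of Kmt2d KO 1 rested on very few cells: 49 of 1851 cells held any Lcn2, and 1 of them held 384 of the 725 UMIs. In Kmt2d KO 3, 1 cell held 47 of the 91 UMIs.

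Slpi, the elastase inhibitor, had the highest counts of the 4 members in the knockout tumour cells; the 5′ tags count transcripts by 1 end, so transcript length does not enter. Its level was 30.0, 85.2 and 52.4 CPM in WT, 432, 891 and 1297 CPM in Kmt2c KO, and 256, 581 and 157 CPM in Kmt2d KO. Neither knockout overlapped with WT, and Kmt2d KO 2 was the single Kmt2d KO library inside the Kmt2c KO range. The means were 55.9 ± 27.8 CPM in WT, 873 ± 433 in Kmt2c KO tumours and 331 ± 221 in Kmt2d KO (SD, n = 3), with log2 fold changes of 3.94 ± 0.57 and 2.52 ± 0.54 (SE) against WT. The highest cell held 215 Slpi UMIs in WT 2, whereas it held 1112 in Kmt2c KO 3 and 1313 in Kmt2d KO 2.

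Apod, the breast cyst fluid lipocalin, was higher in the knockouts with a smaller fold than Lcn2 or Slpi. It was read at 42.1, 34.6 and 26.2 CPM in WT, 104, 233 and 245 CPM in Kmt2c KO, and 78.3, 105 and 97.4 CPM in Kmt2d KO. Both knockouts stood clear of WT, and Kmt2d KO 2 exceeded Kmt2c KO 1 by less than the spread within either group. The means were 34.3 ± 7.98, 194 ± 78.1 and 93.5 ± 13.7 CPM (SD, n = 3), and the log2 fold changes against WT were 2.50 ± 0.29 for Kmt2c KO and 1.42 ± 0.29 for Kmt2d KO (SE).

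Ptgds, the prostaglandin D2 synthase, followed another order. Its level was 65.8, 87.4 and 71.6 CPM in WT, 40.4, 50.9 and 23.0 CPM in Kmt2c KO, and 80.6, 46.5 and 87.8 CPM in Kmt2d KO. Every Kmt2c KO library was below every WT library, while Kmt2d KO libraries 1 and 3 were in or just above the WT range and Kmt2d KO 2 was in the Kmt2c KO range. The log2 fold change was −0.97 ± 0.30 (SE) for Kmt2c KO against WT, −0.10 ± 0.30 for Kmt2d KO against WT and 0.87 ± 0.30 for Kmt2d KO against Kmt2c KO. For the other members the last contrast gave −0.80 ± 0.70 (Lcn2), −1.42 ± 0.51 (Slpi) and −1.08 ± 0.27 (Apod), and the libraries of the knockouts overlapped for all 4. Order across genotypes thus ran WT, Kmt2d KO, Kmt2c KO for the means of Lcn2, Slpi and Apod, with the knockouts overlapping at each. For Lcn2, Kmt2d KO also overlapped WT. For Ptgds the means ran Kmt2c KO, Kmt2d KO, WT, with Kmt2d KO overlapping both neighbours.

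**Figure D1:**
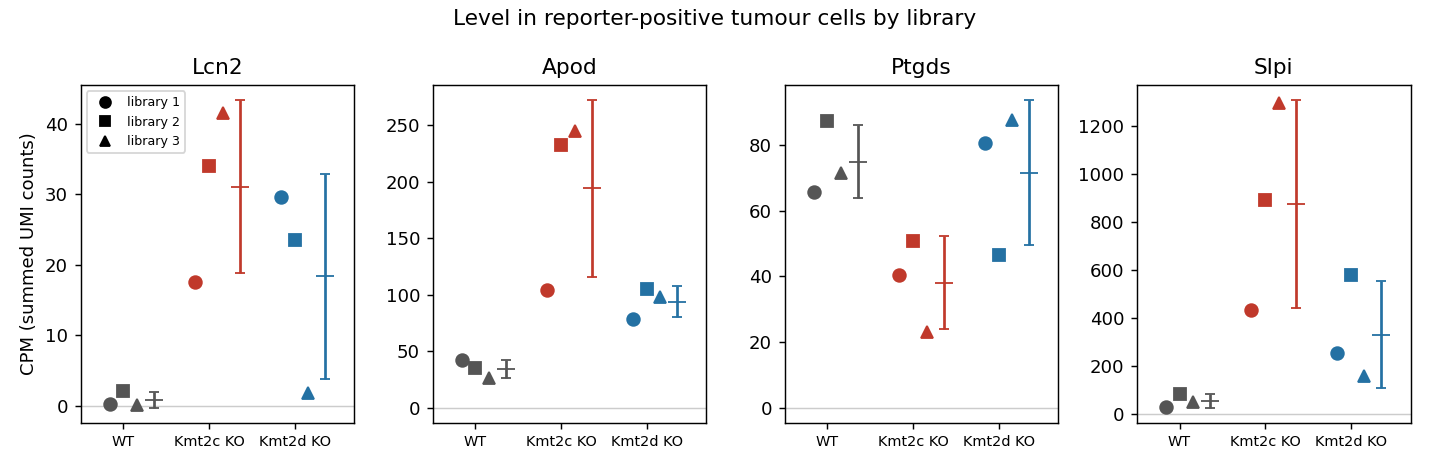
Levels of Lcn2, Slpi, Apod and Ptgds in reporter-positive cells, in CPM on linear axes, by genotype. Each point is 1 tumour library, and the line beside the points gives the group mean with its SD (n = 3). Kmt2c KO points lie above WT for Lcn2, Slpi and Apod and below WT for Ptgds, and Lcn2 in Kmt2d KO spans 1.90 to 29.6 CPM.

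Markers of 10 other cell types were summed in the same reporter-positive cells. The B cell and Schwann cell lists did not overlap with WT in either knockout, the neutrophil list did not in Kmt2c KO, the T and NK cell list did not in Kmt2d KO, and the other 6 lists overlapped with WT in both. The summed level of the 10 macrophage markers, all above 0, was 16.6 to 30.1 CPM in WT, 26.1 to 47.0 in Kmt2c KO tumours and 16.7 to 31.6 in Kmt2d KO. The summed neutrophil markers, 8 of 9 above 0, were at 0.307 to 0.901, 0.969 to 1.56 and 0.563 to 0.917 CPM in the same order of groups. Most of that sum in each Kmt2c KO library was S100a8, which is also a gene of the acute-phase list, at 0.20, 0.35 and 0.10 CPM in WT and 0.62, 0.76 and 1.06 CPM in Kmt2c KO. Ly6g was at 0 in every library, S100a9 was at 0.10 CPM or less, and Cxcr2 was at 0.40, 0.07 and 0.20 CPM in WT and 0.21, 0.03 and 0.17 CPM in Kmt2c KO. Camp, of the same list, went the other way. It was at 0 CPM in every WT library, 0.09, 0.23 and 0.20 CPM in Kmt2c KO and 0.08, 0.10 and 0.06 CPM in Kmt2d KO. The 6 Schwann cell markers, 4 above 0 and Sox10 and Foxd3 at 0, were summed at 2.15 to 2.20, 3.88 to 5.25 and 3.47 to 3.68 CPM. The T and NK cell markers were at 0.400 to 0.833, 0.793 to 2.17 and 0.899 to 1.38 CPM. The 5 B cell markers were summed at 0.901 to 1.60, 3.19 to 5.99 and 1.75 to 2.52 CPM, and the 10 fibroblast markers at 806 to 961, 811 to 961 and 694 to 1095 CPM. The part of these cell types in the members' values was not tested. In cells with no more than 1 marker of each non-tumour type (37, 119 and 30 cells in WT), Lcn2 had no UMI in any WT library and was read at 18.5, 33.8 and 23.7 CPM in Kmt2c KO and 5.52, 8.0 and 0.922 CPM in Kmt2d KO. Slpi was then at 3.30, 3.98 and 2.12 CPM in WT against 265, 484 and 605 in Kmt2c KO tumours and 280, 297 and 64.6 in Kmt2d KO. Apod was at 23.1, 5.12 and 2.12 CPM in WT, 69.0, 127 and 139 in Kmt2c KO tumours and 25.2, 54.9 and 20.0 in Kmt2d KO, where Kmt2d KO 3 fell inside the WT range. Ptgds no longer separated Kmt2c KO from WT in these cells. It was at 9.89, 22.2 and 10.6 CPM in WT and 17.5, 20.5 and 6.80 in Kmt2c KO. Kmt2d KO, at 33.8, 17.7 and 33.2 CPM, had the highest mean. The rule kept 37 of 448, 119 of 925 and 30 of 361 WT cells. In Kmt2c KO it kept 1284 of 3434, 761 of 2599 and 627 of 2244. Its markers include Gsn and Pdgfra, detected in 94.1% and 52.0% of reporter-positive cells. Ptgds was at 86.9 CPM in reporter-positive cells with at least 3 fibroblast markers and 28.7 CPM in those with fewer. These sets pool all libraries and hold unlike mixes of genotypes, so they are not compared. From WT 1 they held 331 and 117 cells, and from Kmt2c KO 1 they held 979 and 2455. The part of the marker rule in the lost separation of Ptgds was not tested.

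The mean shares of positive cells gave the same order of genotypes as the mean levels. After thinning, Lcn2 was detected in 1 of 443 cells of WT 1 (0.226%), 0.217% of WT 2 and 0 of 357 cells of WT 3, which allows a share of cells with a UMI at this depth of up to 0.840% by 3 counts and 1.03% by the exact interval. It was detected in 3.21%, 4.15% and 5.11% of Kmt2c KO tumour cells and in 1.15%, 3.64% and 0.197% of Kmt2d KO cells. Kmt2d KO 1, with a CPM as high as Kmt2d KO 2, had fewer positive cells. Unthinned, the shares were 0.554% to 1.62% in WT, 7.54% to 14.0% in Kmt2c KO tumours and 1.53% to 9.66% in Kmt2d KO, so these shares rose with depth and do not give the share of cells that express Lcn2.

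At 2000 UMIs Slpi was the most widely detected member in each Kmt2c KO library, in 25.7%, 35.3% and 38.1% of thinned Kmt2c KO tumour cells and 17.8%, 26.4% and 14.96% of Kmt2d KO cells, against 6.998%, 8.88% and 5.88% in WT. Apod was detected in 16.6%, 25.9% and 28.1% of Kmt2c KO tumour cells, 13.4%, 14.5% and 15.7% of Kmt2d KO cells and 8.80%, 6.72% and 6.16% of WT cells. Ptgds was detected in 12.4%, 14.2% and 13.7% of WT cells, 5.92%, 6.69% and 3.05% of Kmt2c KO tumour cells and 14.5%, 6.02% and 14.4% of Kmt2d KO cells. For Slpi and Apod each knockout library was above each WT library, and for Ptgds Kmt2d KO 2 again sat with Kmt2c KO. At least 1 of the 4 transcripts was found in 21.3% to 24.6% of WT cells, 39.0% to 53.2% of Kmt2c KO tumour cells and 34.1% to 38.2% of Kmt2d KO cells.

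**Figure D2:**
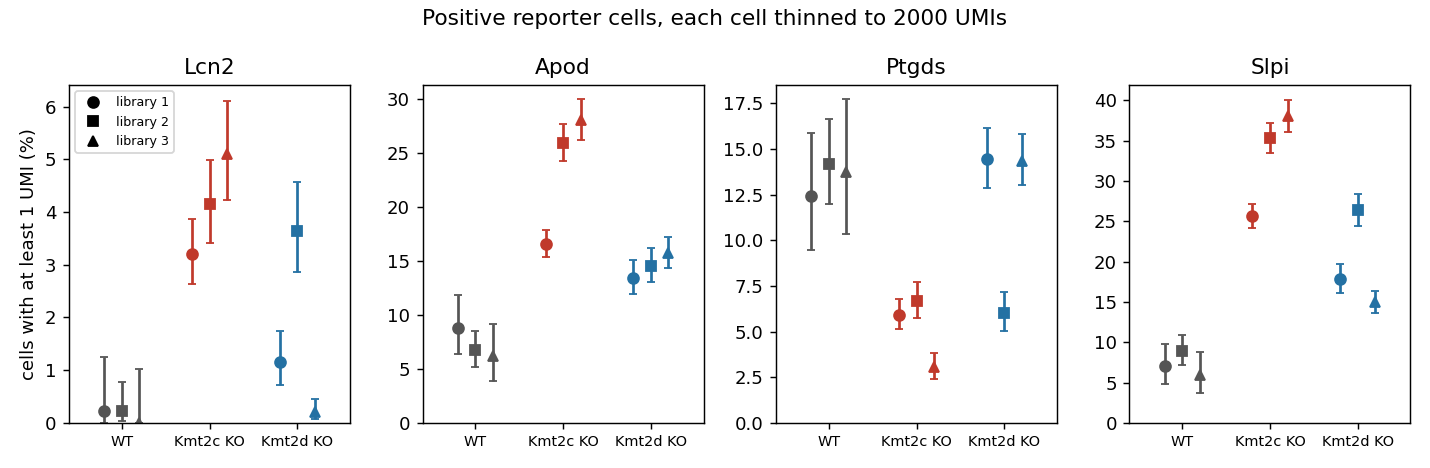
Share of reporter-positive cells, in percent, with at least 1 UMI of each member after thinning to 2000 UMIs, per library by genotype; bars on the points are exact (Clopper-Pearson) 95% binomial intervals, which cover counting error only. Slpi reaches 38.1% in Kmt2c KO 3, and Lcn2 stays at or under 5.11% in every library.

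Whether the members occurred in the same tumour cells was examined within each library, as the odds ratio of joint detection in thinned cells, where 1 means that the detection of one gene goes with no change in the odds of the other. An odds ratio was computed where each gene of a pair had at least 10 positive cells, and cells of 1 library share its depth and makeup, so no p is given. Lcn2 and Slpi occurred together in all 5 libraries with enough cells, with odds ratios of 3.26, 6.34 and 4.09 in Kmt2c KO and 5.18 and 4.96 in Kmt2d KO 1 and 2. In Kmt2c KO 2, 81 of 106 Lcn2-positive cells held Slpi (76.4%) against 33.5% of Lcn2-negative cells, where independence would give 37.4 joint cells. In Kmt2d KO 1 the counts were small, at 11 joint cells of 21 Lcn2-positive ones. With cells thinned to 4000 UMIs, 6 libraries had enough cells for this pair and 6 were above 1. Their odds ratios then ranged from 1.29 to 6.69 (median 3.50).

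For Lcn2 and Apod the odds ratios lay nearer to 1 and on both sides of it, at 1.73, 1.09 and 1.54 in Kmt2c KO and 0.82 and 0.98 in Kmt2d KO 1 and 2. Without thinning, 6 of 7 libraries were above 1 for this pair (median 1.47), and in cells with at most 1 marker of each non-tumour type 3 of 3 were (median 2.86). Apod and Slpi occurred together in 9 of 9 libraries, with a median odds ratio of 2.29 and a range of 1.98 to 4.68. In Kmt2d KO 2, 50.2% of Apod-positive cells held Slpi against 22.3% of Apod-negative cells.

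Ptgds did not occupy separate cells from Apod and Slpi. Its odds ratio with Apod was above 1 in 9 of 9 libraries (median 2.64, range 1.55 to 7.73), and likewise with Slpi (median 1.83, range 1.23 to 4.65). In Kmt2d KO 3, Ptgds was found in 9.58% of cells with none of the other 3 members, 25.1% of cells with 1 of them and 40.6% of cells with 2. In WT 1 it was found in 8.42% of cells with none, 38.2% of cells with 1 and 2 of 8 cells with 2, and in Kmt2c KO 3 in 1.60%, 3.73% and 5.68% of cells with 0, 1 and 2. Kmt2d KO 2 showed little such change, at 5.28%, 7.80% and 6.63%. Of the cells with all 3 others, Ptgds was in 0 of 15, 2 of 21 and 1 of 24 in Kmt2c KO 1 to 3 and in 0 of 6 in Kmt2d KO 2. With Lcn2, the joint counts were too few to place Ptgds: 2 to 6 cells per library held both, and the odds ratios were 1.00, 0.32 and 0.69 in Kmt2c KO and 1.52 and 0.54 in Kmt2d KO 1 and 2. Without thinning, 4 of 7 libraries were below 1 for Lcn2 and Ptgds (median 0.92). In cells with at most 1 marker of each non-tumour type 3 of 3 were (median 0.52). With Krt8 required 2 of 5 were (median 1.11).

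**Figure D3:**
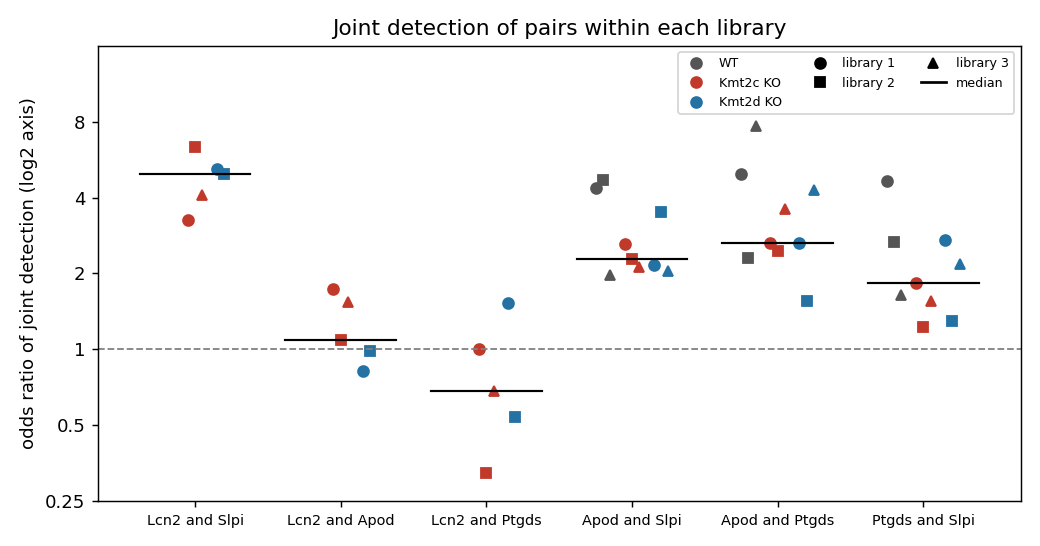
Odds ratio of joint detection for the 6 pairs of members in reporter-positive cells thinned to 2000 UMIs, on a log2 axis, with 1 point per library, a short line at the median and a dashed line at 1. Lcn2–Slpi (3.26 to 6.34), Apod–Slpi, Apod–Ptgds and Ptgds–Slpi lie above 1 in every library plotted, and Lcn2–Apod and Lcn2–Ptgds lie on both sides of it.

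Correlation across unthinned reporter-positive cells was computed as a description that depth also enters. The mean over the 9 libraries of the within-library Pearson r of log-normalised values was 0.24 for Apod with Ptgds, 0.23 for Apod with Slpi, 0.17 for Ptgds with Slpi, 0.16 for Lcn2 with Slpi, 0.02 for Lcn2 with Apod and −0.03 for Lcn2 with Ptgds. Lcn2 with Slpi thus had the highest median odds ratio of the 6 pairs but not the highest r. Its r ranged from −0.03 to 0.33 and was positive in 7 of 9 libraries. The WT libraries, which enter the mean, held 3, 15 and 2 Lcn2-positive cells. Among 9620 genes detected in at least 5% of cells in every library, those most like Lcn2 were Slpi itself (r = 0.16), the transcription factor gene Cebpb (0.15), the mitochondrial superoxide dismutase Sod2 (0.13), the metallothionein Mt2 (0.13) and the stromelysin Mmp3 (0.13), all weak. Apod was most like the matrix proteoglycan Bgn (0.46), the interferon regulatory factor Irf7 (0.43), the collagen VI chains Col6a2 and Col6a1 (both 0.40) and Itm2b (0.40). Slpi was most like Bgn (0.41), the secreted glycoprotein Spp1 (0.38), fibronectin (Fn1, 0.37), Itm2b (0.34) and ceruloplasmin (Cp, 0.33). Ptgds was most like the cysteine protease inhibitor Cst3 (0.39), Itm2b (0.38), the membrane metalloprotease Mmp14 (0.37), the transcription factor gene Sox4 (0.36) and Gpnmb (0.36). Of these 5 genes per member, Bgn was named for Apod and Slpi, and Itm2b for Apod, Slpi and Ptgds.

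Stromal and immune cells were gated by markers among cells with no H2BMc and no Krt8 UMI. All 4 members were detected, without thinning, in few of these cells outside the fibroblast gate. In 418 endothelial cells (median 4962 UMIs), Lcn2, Apod, Ptgds and Slpi were detected in 0.478%, 1.91%, 0.478% and 1.67% of cells. In 773 macrophages (median 2323 UMIs) the shares were 0.388%, 3.75%, 0.647% and 6.08%. In 337 T and NK cells (median 1328 UMIs), no cell held Lcn2, which allows a share of up to 0.890%, and Apod, Ptgds and Slpi were in 3.26%, 0.890% and 3.56%. The 132 dendritic and 111 mural cells held no Lcn2 or Ptgds and had Apod in 4.55% and 3.604% and Slpi in 1.52% and 1.80% of cells. No cell met the neutrophil gate, so the Lcn2 and Slpi of neutrophils, a well-known source of both, could not be read. The part of free RNA of the suspension in these shares was not tested, and they are not read as expression.

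Slpi in macrophages was uneven between libraries. Its UMIs were 0, 0 and 1 in WT (34, 52 and 73 cells), 1, 48 and 34 in Kmt2c KO and 3, 74 and 1 in Kmt2d KO, and the 74 UMIs of Kmt2d KO 2 came from 6 of 53 cells. The levels were 0, 0 and 3.45 CPM in WT, 6.40, 101 and 68.3 CPM in Kmt2c KO and 12.5, 338 and 7.69 CPM in Kmt2d KO. By edgeR's quasi-likelihood test with Benjamini-Hochberg adjustment over 4592 genes, Slpi had an adjusted p of 0.103 for Kmt2c KO and 0.247 for Kmt2d KO against WT, and of 0.650 between knockouts. It passed the filter on low counts only through the knockout libraries where it was high, so nothing is read from these values. Of all genes tested in macrophages, 8.06%, 0.218% and 0.392% passed in these 3 contrasts. The tumour cells of Kmt2c KO 2 and 3 and of Kmt2d KO 2 were also the 3 highest for Slpi, and the part of free tumour RNA in the macrophage counts was not tested. Apod had 1 UMI in WT macrophages, 72 in Kmt2c KO and 10 in Kmt2d KO and did not pass the filter on low counts, and in endothelial cells no member did.

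The fibroblast gate cannot be told apart from tumour cells in this table. It held 3312 cells, but 7684 reporter-positive cells (46.0%) met the same rule on fibroblast markers. Lcn2 was in 4.62%, Apod in 49.9%, Ptgds in 22.9% and Slpi in 37.8% of its cells. Its Apod CPM was 163% to 439% of that of reporter-positive cells of the same library in 9 of 9 libraries (median 348%). The range was 71.4% to 280% for Ptgds (median 197%), 43.4% to 597% for Slpi (median 169%) and 0% to 196% for Lcn2 (median 58.5%). Col14a1, a fibroblast collagen detected in 24 of the 16707 reporter-positive cells, gave a smaller subset of 112 cells, a split chosen after the data had been seen. In that subset Apod was in 39.3% of cells at 157 CPM, whereas Slpi was in 9.82% at 21.8 CPM and Lcn2 and Ptgds were each in 3.57% at 7.25 CPM. In the other 3200 cells of the gate, Lcn2, Apod, Ptgds and Slpi were at 25.8, 389, 122 and 826 CPM. Of the 112 cells, 40 came from Kmt2d KO 1 and 27 from Kmt2d KO 2, so the subset and the rest of the gate hold unlike mixes of genotypes and are not compared.

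**Figure D4:**
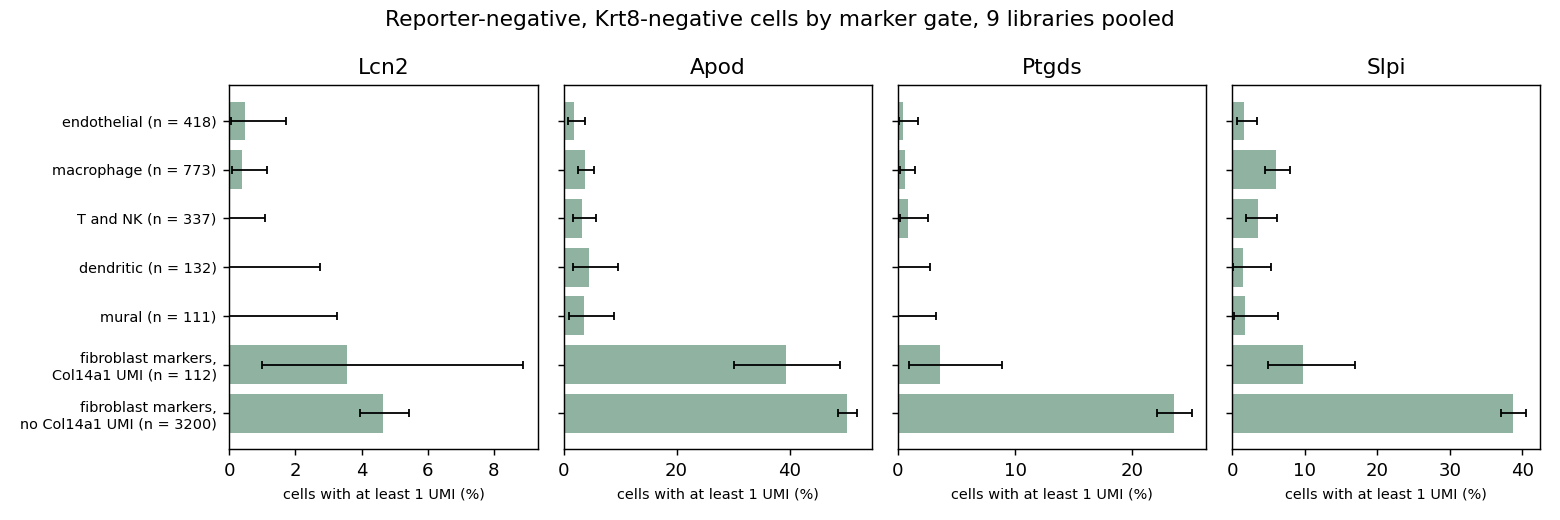
Bars give the share of cells, in percent, with at least 1 UMI of each member in each marker gate, pooled over the 9 libraries and without thinning, and lines give exact 95% binomial intervals for counting error. Endothelial cells, macrophages and T and NK cells stay at or under 6.08% for every member. Cells of the fibroblast gate hold Apod in 39.3% of cells with Col14a1 and 50.25% of those without. These subsets hold unlike mixes of genotypes and are not compared.

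Genes related to the members by family or pathway were tested in the reporter-positive cells with edgeR's quasi-likelihood test on counts summed per library, at a Benjamini-Hochberg adjusted p below 0.05 over all 14089 genes tested. The lists were chosen with earlier results of these data known, so their counts of calls are a description and no excess is read from them. Of 123 listed genes, 65 passed the filter on low counts. In Kmt2c KO against WT, 23 of the 65 were called, 18 higher and 5 lower (35.4%), where 18.7% of all genes were called, 9.57% higher and 9.17% lower. In Kmt2d KO against WT, 3 were called, all higher (4.62%), where 2.27% of all genes were called, 1.04% higher and 1.23% lower. Between the knockouts edgeR called 0 of 65, against 0.0781% of all genes, while 33 had an unadjusted p below 0.05 and DESeq2 called 10. Without Kmt2d KO 2, 24 were called between the knockouts, as were 2797 of all 14208 genes then tested. The Kmt2c KO count fell to 13 without WT 2, WT 3 or Kmt2c KO 3 and to 14 without Kmt2c KO 2, while the count over all genes fell from 2640 to 1256, 1368, 1568 and 1530. The Kmt2d KO count fell to 0 without any 1 of the WT libraries, fell to 1 without Kmt2d KO 3 and was 5 without Kmt2d KO 2. Over all genes this count was 320 with all libraries and then 98 to 110, 173 and 823. Both contrasts use the same 3 WT libraries.

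Acute-phase genes and genes induced by IL-1 or IL-17, many of them known to be induced together with Lcn2, were the longest list tested. In Kmt2c KO, 8 of 20 were called higher and none lower, and 19 of 20 had a positive log2 fold change, with a median of 1.27 against −0.00 for all genes. The 19 and the median include Il1b, Saa3, Pglyrp1 and S100a8, whose sign was set by the filter on low counts. Nothing is therefore read from these values. The complement component C3 was read at 2.00, 2.50 and 1.43 CPM in WT, 78.0, 152 and 179 CPM in Kmt2c KO and 23.6, 104 and 17.6 CPM in Kmt2d KO, so that WT lay below both knockouts. Its log2 fold change was 6.06 ± 0.78 in Kmt2c KO (adjusted p = 0.00118) and 4.53 ± 0.78 in Kmt2d KO (adjusted p = 0.0161), the latter lost without any 1 of the WT libraries. Nos2, the inducible nitric oxide synthase, rose in Kmt2c KO by 3.56 ± 0.63 on the log2 scale (adjusted p = 0.00511) but in Kmt2d KO had a log2 fold change of 0.85 (adjusted p = 0.579). Il1b, the IL-1β gene, had 1 UMI in WT and 46 in Kmt2c KO, 16.6 times the level with a counting interval of 2.84 to 671. It is among the 8 but passed the filter on low counts only through knockout libraries, as did Saa3, Pglyrp1 and S100a8 in this list. The Il1b call was lost when any 1 WT or Kmt2c KO library was left out, so nothing is read from the call. Cebpb, one of the genes most like Lcn2 across cells, rose by 1.53 ± 0.21 in Kmt2c KO (adjusted p = 0.00146). The other Kmt2c KO calls were Nfkbiz, Stat3, Tnfaip3 and Zc3h12a. Saa3 and Hp, acute-phase genes of secretory epithelium, had log2 fold changes of 5.95 ± 1.90 (adjusted p = 0.0512) and 3.73 ± 1.52 (adjusted p = 0.112) and did not pass. In Kmt2d KO the median was 0.56, and beside C3 the receptor gene Il17ra rose, by 0.64 ± 0.13 (adjusted p = 0.0311), a call lost without Kmt2d KO 3 or any 1 of the WT libraries.

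Of the genes that make, carry or sense prostaglandins, 5 of 11 rose in Kmt2c KO and none fell (median log2 fold change 0.47). The inducible cyclooxygenase Ptgs2 was read at 2.20, 6.25 and 11.6 CPM in WT and 21.3, 45.9 and 76.5 CPM in Kmt2c KO, a log2 fold change of 2.83 ± 0.73 (adjusted p = 0.0228), lost without WT 1, WT 2, Kmt2c KO 2 or Kmt2c KO 3. In Kmt2d KO it was at 23.6, 13.2 and 3.38 CPM, overlapping WT (0.95, adjusted p = 0.56). The constitutive cyclooxygenase Ptgs1 was read at 236, 245 and 242 CPM in WT, 353, 362 and 345 CPM in Kmt2c KO and 366, 302 and 332 CPM in Kmt2d KO. It rose in both knockouts, by 0.55 ± 0.10 (adjusted p = 0.00462) and 0.44 ± 0.09 (adjusted p = 0.0442), the second being the single call of this list in Kmt2d KO and lost without any 1 library other than Kmt2c KO 3 or Kmt2d KO 2. The phospholipase Pla2g4a, which frees arachidonic acid, rose by 0.75 ± 0.19 (adjusted p = 0.0222) and the prostaglandin transporter Slco2a1 by 0.76 ± 0.24 (adjusted p = 0.0493) in Kmt2c KO, and the prostaglandin E synthase Ptges was the fifth call. The Pla2g4a call was lost without any 1 WT library, Kmt2c KO 2 or Kmt2c KO 3, and the Slco2a1 call without any 1 WT or Kmt2c KO library.

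Iron genes moved both ways. In Kmt2c KO, 3 of 14 rose and 2 fell (median 0.11), and none of 14 was called in Kmt2d KO by edgeR or DESeq2, where 2 had an unadjusted p below 0.05. Haem oxygenase Hmox1 was read at 10.0, 22.3 and 12.1 CPM in WT, 46.3, 144 and 102 CPM in Kmt2c KO and 34.8, 29.1 and 8.82 CPM in Kmt2d KO, and rose by 2.69 ± 0.55 in Kmt2c KO (adjusted p = 0.00925). Ferritin heavy chain Fth1 rose by 0.68 ± 0.13 (adjusted p = 0.00792) and the ferrireductase Steap3 by 0.62 ± 0.13 (adjusted p = 0.0104). The ferroxidase hephaestin (Heph) fell, with −1.22 ± 0.28 (adjusted p = 0.0152), and so did Ncoa4, the receptor for ferritin breakdown, with −0.36 ± 0.09 (adjusted p = 0.0216). The Heph call was lost without WT 2, WT 3, Kmt2c KO 2 or Kmt2c KO 3, and the Ncoa4 call without any 1 WT library or Kmt2c KO 3.

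The intracellular lipid-binding proteins, small barrel-shaped relatives of the lipocalins, numbered 6 tested, of which 3 fell and 1 was called higher in Kmt2c KO (median log2 fold change −2.39). Fabp5, the epidermal fatty acid-binding protein, was read at 49.3, 43.5 and 53.9 CPM in WT, 27.7, 22.9 and 18.9 CPM in Kmt2c KO and 39.5, 34.5 and 42.8 CPM in Kmt2d KO, and fell by 1.07 ± 0.15 in Kmt2c KO (adjusted p = 0.002). The retinol carrier Rbp2 fell, with −2.44 ± 0.56 (adjusted p = 0.015), a call lost without WT 3 or Kmt2c KO 3. The retinoic acid carrier Crabp2 had 2 UMIs in WT and 40 in Kmt2c KO, 7.23 times the level (counting interval 1.87 to 61.7). It is the 1 counted as higher but passed the filter on low counts only through knockout libraries, and its call was lost without any 1 WT library, Kmt2c KO 2 or Kmt2c KO 3, so nothing is read from the call. None of the 6 was called in Kmt2d KO by edgeR, where 3 had an unadjusted p below 0.05 and DESeq2 called 1.

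**Figure D5:**
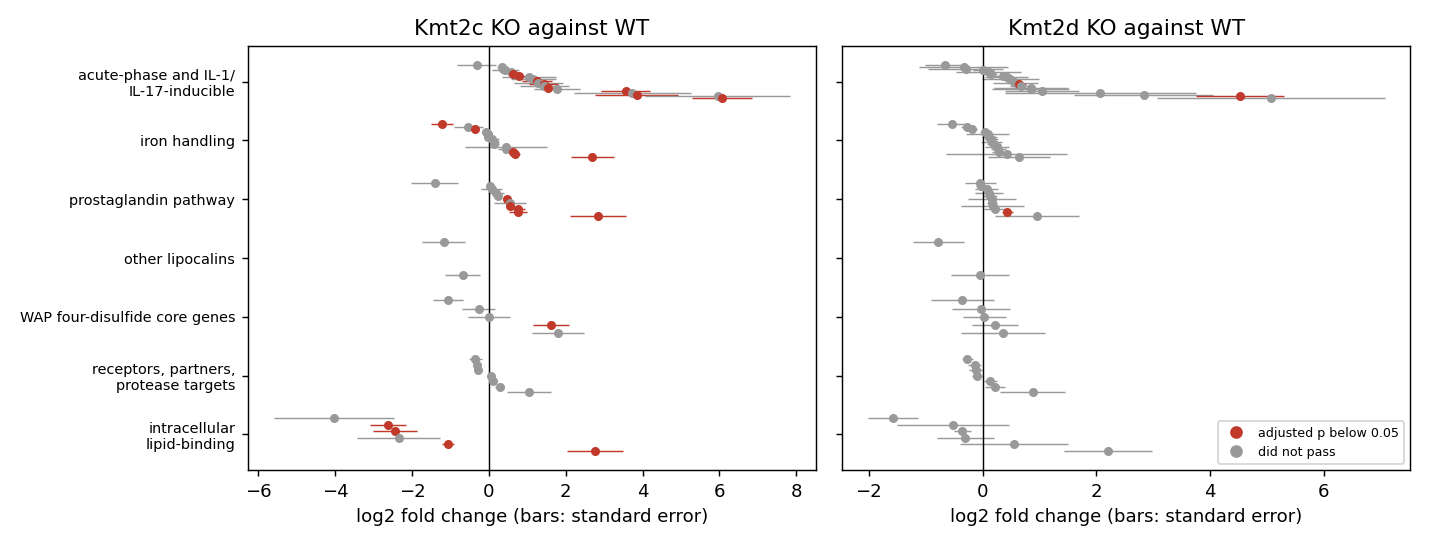
Log2 fold change against WT in reporter-positive cells for every tested gene of the related lists, for Kmt2c KO and Kmt2d KO; lines are standard errors and red points passed an adjusted p below 0.05. The acute-phase list lies above 0 for 19 of its 20 genes in Kmt2c KO and the intracellular lipid-binding list below 0 for all but Crabp2. Il1b, Saa3, Pglyrp1, S100a8 and Crabp2 passed the filter on low counts only through knockout libraries.

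Few close relatives of the members had enough counts to test. Of 19 other lipocalins, 16 were in the table, 9 had no UMI in reporter-positive cells and 2 passed the filter, Apom and C8g, with log2 fold changes of −1.18 ± 0.57 and −0.68 ± 0.45 in Kmt2c KO. Of 20 WAP genes, 5 were tested and 1 was called, Wfdc12, read at 1.00, 1.46 and 1.84 CPM in WT and 2.41, 4.79 and 6.19 CPM in Kmt2c KO (1.62 ± 0.48, adjusted p = 0.0383, lost without any 1 WT library, Kmt2c KO 2 or Kmt2c KO 3). Receptors, partners and protease targets of the members, among them Mmp9, which the Lcn2 protein binds, and Bsg, a receptor for the Apod protein, gave 0 calls among 7 tested genes in each contrast by edgeR. DESeq2 called 1 of them in Kmt2c KO against WT, 0 in Kmt2d KO against WT and 1 between knockouts, and 3, 1 and 2 had an unadjusted p below 0.05.

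Genes whose lowest coordinate lay within 250 kb of a member's lowest coordinate, whatever the strand, were counted in the same fit. For the 4 members, all on the minus strand, this coordinate is the 3′ end. Of 50 tested, 18 were called in Kmt2c KO against WT (36%, 14 higher and 4 lower, beside 18.7% of all genes), 1 in Kmt2d KO (2%, beside 2.27% of all genes) and 0 between the knockouts by edgeR (0.0781% of all genes), where 8 had an unadjusted p below 0.05 and DESeq2 called 3. By member, 5 of 16 neighbours of Lcn2, 10 of 23 of Ptgds, 3 of 8 of Slpi and 0 of 3 of Apod were called in Kmt2c KO. Sdc4, the heparan sulfate proteoglycan syndecan-4, lies 70.2 kb from Slpi by these coordinates. It was read at 120, 119 and 118 CPM in WT, 203, 278 and 294 CPM in Kmt2c KO and 133, 172 and 110 CPM in Kmt2d KO (1.11 ± 0.17, adjusted p = 0.00224 in Kmt2c KO). Matn4, also beside Slpi, was near the limit of detection at 0.10, 0.07 and 0.20 CPM in WT and 0.26, 0.62 and 0.77 CPM in Kmt2c KO. With Sdc4 and Wfdc12 it makes up the 3 Slpi neighbours called, but it passed the filter on low counts only through knockout libraries, and its call was lost with DESeq2 and without any 1 library other than Kmt2c KO 1 or Kmt2d KO 2, so nothing is read from it. Near Ptgds, the ficolin gene Fcna fell in Kmt2c KO, with −0.61 ± 0.11 (adjusted p = 0.00485), and in Kmt2d KO, with −0.58 ± 0.11 (adjusted p = 0.0208), the Kmt2d KO call being lost without any 1 WT library, Kmt2d KO 1 or Kmt2d KO 3. Its antisense partner Fcnaos had −0.61 ± 0.19 (adjusted p = 0.0451) in Kmt2c KO, a call lost with DESeq2 and without any 1 library other than Kmt2d KO 2. No source used here says whether the counting used strand, so reads of the pair may not be told apart. The neighbour count in Kmt2c KO was 8 to 9 without any 1 WT library, 9 without Kmt2c KO 2 and 11 without Kmt2c KO 3. Over all genes these counts were 1256 to 1450, 1530 and 1568. The Kmt2d KO count was 0 without any 1 WT library or Kmt2d KO 3, 2 without Kmt2c KO 3 and 4 without Kmt2d KO 2. Over all genes these counts were 98 to 110, 173, 267 and 823. Between the knockouts 12 neighbours were called without Kmt2d KO 2, when 2797 of 14208 genes in all were called.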

How the data were processed

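The authors ran Cell Ranger 7.0.1 count and aggregation on 10x 5′ libraries (build mm10, per the labels) and deposited 1 matrix of whole-number UMI counts per gene and barcode. No source used here says whether aggregation thinned libraries to a common depth. Each barcode's library came from its suffix and its group from a genotype letter (C for Kmt2c KO, D for Kmt2d KO, X for WT) that the authors deposited for each library, matched by the names of their comparisons, an inference that no file used here states outright.

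Cells with more than 500 and fewer than 7500 genes and under 15% mitochondrial counts were kept. No doublets were removed. Marker gates needed at least 3 markers (2 for B cells) and more of that type than of any other. Counts were summed per library and CPM computed over all genes. Sums were tested with edgeR 4.0.16 (R 4.3.3: filterByExpr, TMM, glmQLFit, glmQLFTest, 9 libraries in 1 fit, genotype the only factor), with DESeq2 1.42.0 as an alternative, and the scripts were tested on simulated data. Standard errors were had by dividing log2 fold changes by the root of F. Up to 3 called genes per list and direction, up to 5 called neighbours and the 5 most correlated genes per member were named by rule; other genes were named after their values were seen. A gene of the related lists was tested and counted but is not reported here. The members and lists were chosen with earlier results of these data known. Samples are separate tumours, but p-values do not measure variation between edited lines.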

Additional observations from a re-analysis of the deposited data

How the results depend on the processing

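Every setting was applied to all results it fits, and depth differed, with 361 to 925 tumour cells per WT library and 34 to 187 macrophages per library, though the part of depth in the counts of calls was not tested. No paired analysis was possible because barcodes could be tied to libraries and their genotype letters but not to the replicate numbers of the labels. In cells with at most 1 marker of each non-tumour type, log2 fold changes against WT in Kmt2c KO and Kmt2d KO were 9.83 and 7.60 for Lcn2 (WT at 0 UMIs, so these depend on the prior count), 3.61 and 1.92 for Apod, −0.20 and 0.65 for Ptgds, and 6.94 and 5.87 for Slpi, and Apod was at −1.68 between knockouts; the cause was not tested. Related genes called were then 11 in Kmt2c KO and 0 in Kmt2d KO, and neighbours 5 and 0, among fewer cells and 10821 genes. Related genes in Kmt2d KO numbered 7 with DESeq2, 6 with no low-count filter and 1 with only the groups compared; between knockouts they numbered 10 with DESeq2, 16 with no filter and 2 with at least 2 H2BMc UMIs. Neighbours numbered 11 in Kmt2c KO with at least 2 H2BMc UMIs; 3 (DESeq2), 2 (no filter) and 2 (H2BMc with Krt8) in Kmt2d KO; and 3 (DESeq2), 2 (no filter) and 1 (2 H2BMc UMIs) between knockouts. Over all genes, 11 were called between knockouts, against 580 with DESeq2, 521 with no filter and 2797 without Kmt2d KO 2. Mean shares at 2000 UMIs, at 4000 and unthinned were 0.147%, 0.447% and 0.948% for Lcn2 in WT, 4.16%, 6.27% and 10.9% in Kmt2c KO, and 1.66% and, unthinned, 4.61% in Kmt2d KO. For Apod they were 7.23%, 9.85% and 18.5% (WT), 23.5%, 32.3% and 44.8% (Kmt2c KO), and 14.6%, 20.3% and 31.0% (Kmt2d KO, 12.3% with Krt8 required). For Ptgds they were 13.4%, 19.4% and 34.0%, 5.22%, 8.78% and 14.4%, and 11.6%, 18.3% and 30.4%, and for Slpi 7.25%, 10.4% and 18.3%, 33.0%, 39.9% and 47.2%, and 19.7%, 26.2% and 34.3%, as deeper counting detects more cells. Median odds ratios moved to 2.86 (Lcn2–Apod) and 7.38 (Lcn2–Slpi) with at most 1 marker, to 3.58 and 3.50 (Lcn2–Slpi) with Krt8 and at 4000 UMIs, and to 3.84 (Apod–Slpi) unthinned; that of Lcn2–Ptgds was 1.11 with Krt8. The adjusted p of Slpi in macrophages was 2.06e-10 (Kmt2c KO) and 1.22e-15 (Kmt2d KO) with no filter, and the contrast between knockouts reversed without Kmt2d KO 2 (adjusted p = 0.0796); DESeq2 gave no adjusted p for it there. WT held 1 UMI in all and 74 of the 78 Kmt2d KO UMIs came from 6 cells, so nothing is read from these p-values. With Col14a1 required, shares in the fibroblast gate were 3.57% (Lcn2), 39.3% (Apod), 3.57% (Ptgds) and 9.82% (Slpi), a setting chosen after seeing the data.

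Leaving out each library in turn gave log2 fold changes in Kmt2c KO, Kmt2d KO and between knockouts of 4.53 to 6.92, 3.57 to 6.12 and −1.36 to −0.24 (Lcn2), 2.33 to 2.81, 1.27 to 1.57 and −1.39 to −0.90 (Apod), −1.24 to −0.69, −0.27 to 0.14 and 0.59 to 1.15 (Ptgds), and 3.59 to 4.41, 1.85 to 2.98 and −2.09 to −1.07 (Slpi). Related genes called ranged over 13 to 32, 0 to 5 and 0 to 24, and neighbours over 8 to 21, 0 to 4 and 0 to 12. Median odds ratios ranged over 1.04 to 1.31 (Lcn2–Apod), 0.613 to 0.845 (Lcn2–Ptgds), 4.52 to 5.07 (Lcn2–Slpi), 2.63 to 3.12 (Apod–Ptgds), 2.23 to 2.45 (Apod–Slpi) and 1.74 to 2.00 (Ptgds–Slpi). The adjusted p of Slpi in macrophages ranged over 0.00208 to 0.261, 0.0681 to 0.889 and 0.0796 to 0.822.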
